A study of Mus musculus with 2 samples.

Results

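The regions described here are sites of STAT5 binding that lie beyond the 3′ end of a gene. STAT5A was mapped by ChIP-seq, which pulls down the DNA that a protein occupies and reads its sequence. Among the 5703 regions called in the IL-2 library of the deposited gene table, each was given to the gene whose start was nearest. Those that lay downstream of that gene and more than 1000 bp from its start were taken. This gave 534 regions (9.36%, Wilson 95% interval 8.63 to 10.1%, which covers counting of regions only), after the ends of 451 genes.

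The IL-2 group was 1 library of mouse effector CD8 T cells that had been cultured with 0.5 µg/ml IL-2 over 1 hour, and the control group was 1 library of the same kind of cells without IL-2. Both held OT-I cells, labelled C57BL/6, whose transgenic T cell receptor recognises the ovalbumin peptide SIINFEKL. All of them had been transferred into mice, primed there with that peptide while CD134 and CD137, both costimulatory receptors, were engaged by agonists, and recovered by sorting of spleen cells on day 4. Per the labels, a single lot of anti-STAT5 antibody was used, so the transferred clone, the priming and the antibody were shared by both groups. Binding data cannot show a cell type, but all 7 marker genes of effector CD8 T cells that were looked up (Cd8a, Cd8b1, Cd3e, Cd3g, Gzmb, Prf1 and Il2ra) had a region in the table, and Cd8a and Cd8b1 had a downstream one.

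IL-2 binds a receptor whose kinases, JAK1 and JAK3, phosphorylate STAT5. The phosphorylated protein forms dimers, enters the nucleus and binds DNA, often at the palindrome TTCNNNGAA, known as a gamma-activated site. In T cells this pathway drives feedback inhibitors such as Cish and Socs1, survival genes and effector genes, and regulatory elements of such genes can lie before, within or after them. The gene nearest to a region is a way of naming it and does not show which gene it acts on.

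Sequence could be shown for few of these regions, because only windows of 300 bases around annotated gene starts (250 before and 50 after) were used. The positions of 4 downstream regions fell in such a window of RefSeq (GRCm38.p6, the mm10 build), in each case that of another gene than the one they follow. They are printed because they show how a region after the end of a gene can lie at the start of another. These windows are set by gene starts and are not centred on the regions, so they do not show a typical downstream region. Capitals mark TTCNNNGAA.
Gm30296 start, chr12:102730437-102730736, plus strand, after the end of Moap1: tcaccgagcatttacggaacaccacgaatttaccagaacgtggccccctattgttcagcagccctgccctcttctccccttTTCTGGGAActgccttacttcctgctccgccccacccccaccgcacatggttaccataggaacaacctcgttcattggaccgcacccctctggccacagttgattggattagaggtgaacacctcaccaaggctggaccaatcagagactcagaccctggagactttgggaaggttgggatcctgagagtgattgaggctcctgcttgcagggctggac
Gm31763 start, chr10:67004825-67005124, plus strand, after the end of Reep3: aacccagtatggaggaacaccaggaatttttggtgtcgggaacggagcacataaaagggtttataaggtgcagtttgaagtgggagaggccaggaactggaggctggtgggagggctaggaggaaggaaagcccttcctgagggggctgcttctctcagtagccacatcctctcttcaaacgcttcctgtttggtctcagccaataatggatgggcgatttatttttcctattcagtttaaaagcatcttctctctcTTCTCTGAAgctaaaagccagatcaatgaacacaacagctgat
Chd8 start, chr14:52257711-52258010, minus strand, after the end of Rab2b: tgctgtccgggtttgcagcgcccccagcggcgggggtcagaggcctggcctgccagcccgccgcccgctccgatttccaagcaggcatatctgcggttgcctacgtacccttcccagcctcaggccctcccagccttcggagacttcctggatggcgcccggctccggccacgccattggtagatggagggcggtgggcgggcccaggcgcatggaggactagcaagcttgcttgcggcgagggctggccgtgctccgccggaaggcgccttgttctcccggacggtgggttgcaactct
Gm46838 start, chr3:105825804-105826103, minus strand, after the end of Gm5547: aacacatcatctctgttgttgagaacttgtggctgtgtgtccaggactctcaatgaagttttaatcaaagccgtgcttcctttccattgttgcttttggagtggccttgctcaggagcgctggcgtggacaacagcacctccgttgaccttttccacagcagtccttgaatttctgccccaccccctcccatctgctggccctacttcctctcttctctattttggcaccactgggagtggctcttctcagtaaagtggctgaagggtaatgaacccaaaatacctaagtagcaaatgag

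The motif was present in 2 of these 4 windows. At Gm30296, a long non-coding RNA gene, the letters were TTCTGGGAA, with their centre at -14 bases from the deposited position of the region. At Gm31763, also a long non-coding RNA gene, they were TTCTCTGAA, 94 bases to the 3′ side of the position. The windows at Chd8, which encodes a chromatin remodeller, and at Gm46838 held no match to these letters. TTCNNNGAA reads the same on both strands, and overlapping matches were counted. Among all 32851 promoter windows 8.3% held it, and among the 437 windows that contained the position of any IL-2 region 46.2% did (202 windows). The same letters with 4 bases in place of 3 between TTC and GAA, which also read alike on both strands and can overlap the shorter form, were in 0 of the 4 windows, in 8.47% of the 437 and in 6.95% of all. With 4 windows no share can be read for downstream regions. Of the 4 regions, 2 had a height, both at or below the lower quartile of downstream regions (16 with IL-2): the region at Gm30296 had 14 in the IL-2 library and 6 in the control library, and that at Chd8 had 16 in the IL-2 library and 3 in the control library.

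Downstream regions were spread over the whole flank that the table covers. Their median distance past the gene end was 4384 bp, with quartiles of 2078 and 7292 bp and a range of 14 to 11682 bp. Per kilobase, 55 regions lay in the first kilobase after the end, 75 in the next and 43 between 9 and 10 kb. Beyond 10 kb there were 20, since the table lists regions out to about 10 kb of a gene. By comparison, the 774 regions upstream beyond 1 kb numbered 147 between 1 and 2 kb before the start and 63 between 9 and 10 kb. Upstream regions thinned with distance from the start more than downstream regions thinned with distance from the end, in a comparison of counts without a test. Genes followed by a region were short, with a median length of 9689 bp against 20658 bp over all 4934 listed genes. The rule favours short genes, because a region after a long gene lies far from that gene's start and is more easily given to a neighbour.

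**Figure D1:**
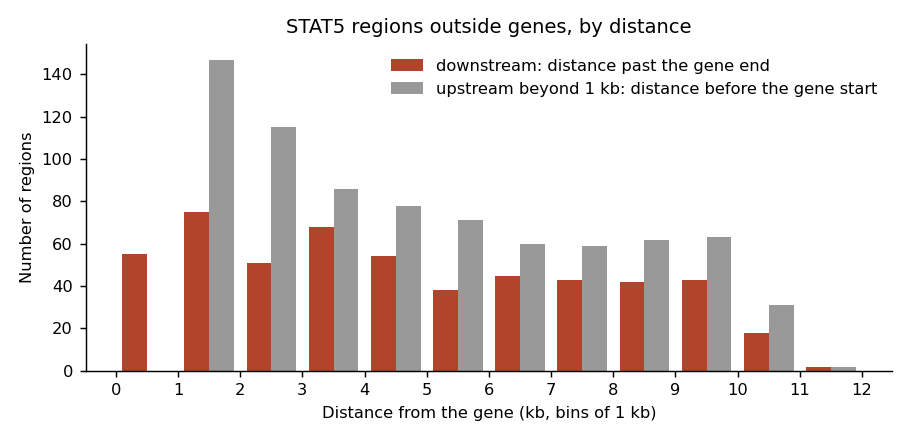
Number of regions per kilobase, for downstream regions by distance past the gene end (red) and for upstream regions beyond 1 kb by distance before the gene start (grey). Downstream counts per kilobase lie between 38 and 75 up to 10 kb, while upstream counts are 147 between 1 and 2 kb and 63 between 9 and 10 kb.

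The nearest regions followed the gene end closely. Neat1, a long non-coding RNA of nuclear paraspeckles, had a region 14 bp past its listed end, and RefSeq's longer Neat1 gene contains that region. Arl4c, a small GTPase of the ARF family, had a region at 17 bp. A region 16 bp after 4930455C13Rik had a height of 26 with IL-2 and 5 in control, and it lies inside Hbs1l, a gene of ribosome rescue. The region 68 bp after Cd2, an adhesion receptor of T cells, was among 5 regions of that gene. Farthest out were regions after Gm10155 (11682 bp, heights of 58 with IL-2 and 7 in control, inside Sbk1), Socs1 (11392 bp), Gm19261 (10882 bp, inside Gm8369) and Armc10 (10784 bp, heights of 54 with IL-2 and 6 in control, inside Napepld).

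At the threshold of the rule, 20 further regions were downstream but within 1000 bp of the start, after very short genes. The last of them followed Mir31 (902 bp from its start), Hist1h4c (897 bp) and Gm7461 (893 bp). The regions just past the threshold followed Traj56 (1036 bp), Gm2830 (1177 bp, heights of 13 with IL-2 and 3 in control) and Gm5735 (1187 bp, heights of 34 with IL-2 and 3 in control). Gm7461 had heights of 10 with IL-2 and 4 in control, and the Hist1h4c region 28 with IL-2 and 5 in control.

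Many downstream regions also touched other genes. Of the 534 regions, 352 were listed by a single gene and 182 by more, up to 11. For 89 the region also lay inside another listed gene, for 39 upstream of another and for 88 downstream of another. A total of 415 were downstream of every gene that listed them. Set on RefSeq genes, 363 regions (68%) lay in no annotated gene, 100 (18.7%) inside a protein-coding gene other than their own, and 44 inside a long non-coding RNA gene but no such coding gene. Those inside a coding gene had a median height of 22 with IL-2 and 4 in control (49 regions with a height), and those outside had 21 with IL-2 and 4 in control (149 regions).

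Gene models decided what counted as downstream. For 16 regions RefSeq's version of the same gene reached past the listed end and contained the region. Fam78a was such a case, with 3 regions at 1701, 3589 and 6053 bp past the listed end, all inside its RefSeq gene. Those at 1701 and 3589 bp lay at -273 and 868 bp from a RefSeq start of Fam78a itself. Of 523 regions whose chromosome was in the promoter table, 199 had a start of their own gene as the nearest start there. That table lacks the starts of some genes, so its counts leave such starts out. A region of Il10 lay 6187 bp from that gene's start, but the nearest start in the promoter table was 62500 bp away. Among the 523 regions, 25 lay within 1 kb of a start in the promoter table. The Chd8 window above is of this kind: the table gave its region to Rab2b, a small GTPase of vesicle transport, 3935 bp past its end. Where neither another coding gene nor RefSeq's version of the gene itself contained the region (419 regions), the next coding gene in the direction of transcription had the same orientation for 148 and the opposite one for 170. For the other 101 its strand was not taken from the promoter table.

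Most genes with a downstream region were protein-coding (327 of 451, or 72.5%, against 84.9% of all listed genes). Long non-coding RNA genes made up 9.98% against 6.24%, and microRNA genes 3.33% against 1.54%. The 15 microRNA genes had 17 regions between 1337 and 8732 bp past the end. Only 7 of these regions had a height, from 14 to 55 with IL-2 and from 2 to 5 in control. Among them, regions after Mir1946b had heights of 55 with IL-2 and 4 in control, and after Mir26b 42 with IL-2 and 4 in control. Short genes have little room for a region inside them, and the part of gene length in these shares was not tested.

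Heights were available for 198 of the 534 downstream regions. A height is the peak signal of a library in a region, and the table gives it for each library as a mean over the regions of a gene. The table also gives the highest peak of each gene over both libraries, which was not used for these heights. Heights were taken only from genes with a single region, the nearest gene itself for 188 regions and another gene that listed the region for 10. The other 336 regions, which include nearly all those after well-known IL-2 response genes, have no height of their own here. The ones described next thus belong mostly to isolated sites. The depth of the libraries is unknown. Neither group had a replicate, so the libraries were compared by their values, without a test.

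In the IL-2 library the 198 heights had a lowest value of 10, a median of 21 and a highest of 170. In the control library they had a lowest value of 2, a median of 4 and a highest of 10. The ranges met at 10, and each of the 198 regions was higher with IL-2 than in control, as were all 2245 regions of the table with a height. Every region was in the table because it had been called in the IL-2 library, so this direction was favoured by the selection. With a pseudocount of 5 the log2 ratio of IL-2 over control had a median of 1.56 (quartiles 1.18 and 2.13), and the ratio reached 2 or more for 170 of 198 regions (85.9%). Among all 2245 regions with a height, which include these 198, the share was 80.4%. The Wilson interval of the downstream share (80.3 to 90.0%) covers counting of regions only. A ratio of at least 4 was found for 60 downstream regions (30.3%), against 21.1% of all regions with a height. Upstream beyond 1 kb, 84.1% of regions reached a ratio of 2 and 27.4% a ratio of 4. Within genes these shares were 87.9% and 23.1% beyond 10 kb, and 78.2% and 18.7% at 1 to 10 kb. Regions near starts, 1019 of the 2245, had 75.9% and 17.2%. Scaling the libraries to equal medians across the genes of the table moved the median log2 ratio of all genes by -1.27. After it, IL-2 was the higher value at 134 of the 198 regions and control at 64, against 1228 with IL-2 and 1017 in control over all 2245 regions.

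**Figure D2:**
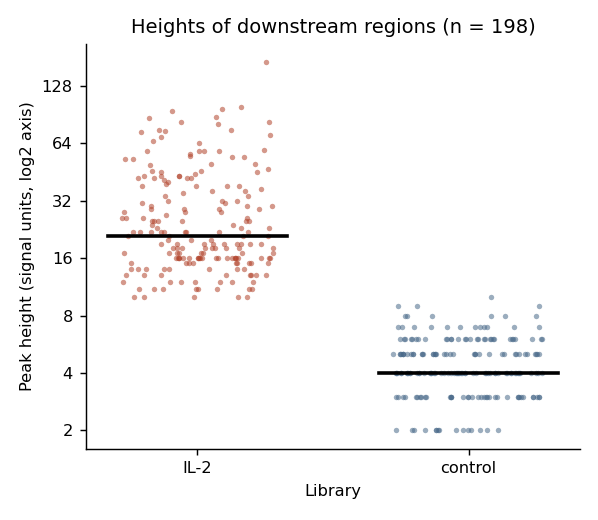
Peak heights of the 198 downstream regions with a height, in the IL-2 library (left) and the control library (right), on a log2 axis. Each point is a region, spread sideways at random, and the line is the median, 21 with IL-2 and 4 in control, with ranges that meet only at 10.

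Heights of downstream regions were set beside those of the other position classes. The median IL-2 height was 21 downstream, 22.5 upstream beyond 1 kb, 18 within genes at 1 to 10 kb, 20 within genes beyond 10 kb and 16 within 1 kb of a start. Control medians were 4 downstream, 5 upstream, 5 and 4 within genes and 4 near starts. The median log2 ratio was 1.56 downstream (95% interval of the median 1.39 to 1.70, over regions), 1.49 upstream (1.37 to 1.58), 1.35 and 1.46 in the 2 classes within genes, and 1.22 near starts (1.18 to 1.26). These intervals take regions of the same 2 libraries as units, the classes were not tested against each other, and the share of regions with a height differed, at 37.1% downstream, 40.6% upstream, 34.2% and 21.4% within genes at 1 to 10 kb and beyond 10 kb, and 64.9% near starts. By distance past the end, the median IL-2 height was 21 up to 1000 bp (17 regions), 19 between 1000 and 2500 bp (37 regions) and 22 between 2500 and 5000 bp (54 regions). Farther out it was 21 between 5000 and 7500 bp (48 regions), 25.5 between 7500 and 10000 bp (34 regions) and 16.5 beyond 10000 bp (8 regions). Control medians lay between 4 and 5.5, and the medians followed no single direction with distance.

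**Figure D3:**
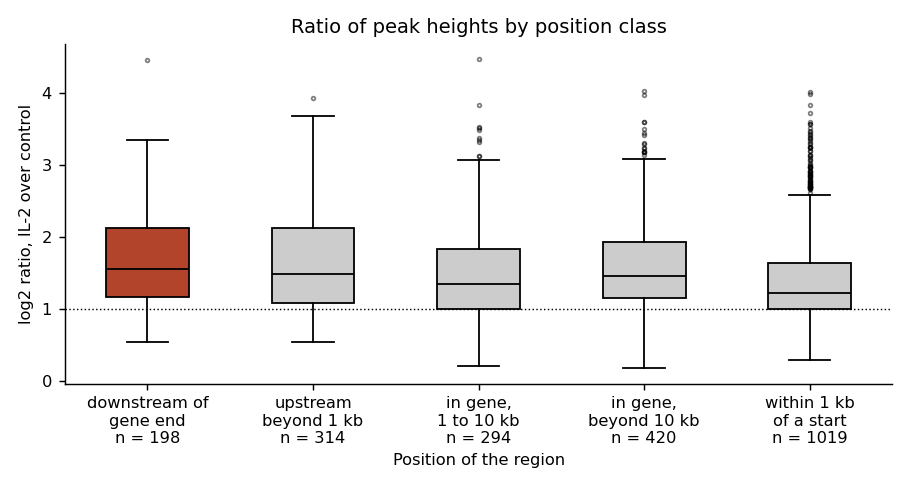
Log2 ratio of IL-2 over control height (pseudocount 5) by position of the region, with boxes for the quartiles, whiskers to 1.5 times the interquartile range and points beyond. The downstream median is 1.56, the upstream median 1.49 and the median near starts 1.22, and the dotted line marks a ratio of 2.

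Among the 198 downstream regions with a height, the highest lay 8790 bp past the end of 2410131K14Rik, on chromosome 5 at 118271904. It had a height of 170 with IL-2 and 3 in control (log2 ratio 4.45), and no RefSeq gene contains it. RefSeq now names that gene Spring1, a regulator of sterol-responsive transcription. That region stood well above the next of the 198, after Dhx37, an RNA helicase of ribosome assembly. The latter had 99 with IL-2 and 10 in control (chromosome 5 at 125406288). The Dhx37 region also had the highest control value of all 198. Regions without a height are outside this ranking. They include the farther region of Socs1, whose highest peak was 156, and the regions of Mir101c, whose highest peak was 144. After Ldhal6b, a lactate dehydrogenase-like gene, the height was 97 with IL-2 and 6 in control (10507 bp past the end). The region after the RNA gene 4933407L21Rik had 95 with IL-2 and 6 in control, and RefSeq places it inside Gpr55, a lipid-responsive receptor, although the table lists it as downstream of Gpr55 too.

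Below these came regions after genes of varied function. Carf, a calcium-responsive transcription factor, was followed at 7814 bp by a region with 88 with IL-2 and 5 in control. Grxcr2, a gene of inner-ear hair cells, was followed by one with 87 with IL-2 and 4 in control, the largest ratio after that of 2410131K14Rik (log2 ratio 3.35). After Sec63, a component of protein import into the endoplasmic reticulum, the heights were 83 with IL-2 and 6 in control. All 3 regions lie in no RefSeq gene. The region after Tcrg-C4, a constant gene of the T cell receptor gamma locus, also had 83 with IL-2 and 6 in control. It lies within the Tcrg locus, and its height was taken from Stard3nl.

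Id3 was the only gene of the 11 lists described further on among the 12 highest regions with a height. Most regions of list genes have no height of their own and could not enter this ranking. It encodes an inhibitor of E protein transcription factors and is known for a role in memory CD8 T cells. Its single region, 2192 bp past the end on chromosome 4 at 136147584, had 81 with IL-2 and 8 in control (log2 ratio 2.73). Gabarapl1, an autophagy protein of the ATG8 family, was followed at 2853 bp by a region with 75 with IL-2 and 5 in control. Gm4968 had 75 with IL-2 and 4 in control, and Tekt1, a tektin of sperm flagella, 74 with IL-2 and 7 in control. LOC101056093 had 73 with IL-2 and 4 in control and completes the 10 largest ratios among regions with a height.

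**Figure D4:**
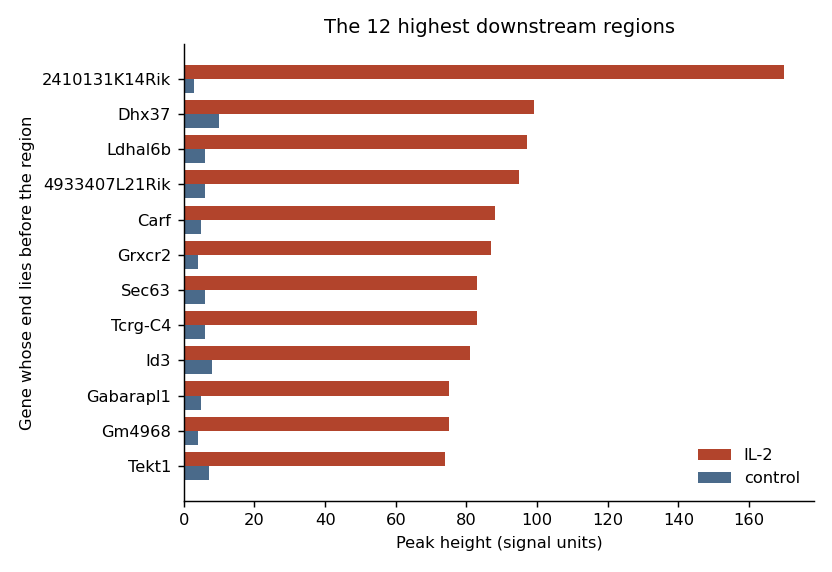
Heights in the IL-2 library (red, upper bar) and the control library (blue, lower bar) of 12 downstream regions, named by the gene they follow. These are the 12 with the highest IL-2 height among downstream regions with a height of their own. IL-2 heights run from 74 to 170 and control heights from 3 to 10.

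Among downstream regions with a height, the lowest ratios came with low IL-2 heights. The region after Tcrg-C2, another constant gene of the gamma locus, had 11 with IL-2 and 6 in control (log2 ratio 0.54), although the region after Tcrg-C4 in the same locus was among the highest. The region after Hspe1, a mitochondrial chaperonin, had 14 with IL-2 and 8 in control. After Sit1, an adaptor that dampens T cell receptor signalling, the heights were 16 with IL-2 and 9 in control. These 3 regions were below a ratio of 2. So was the region after Il5, a cytokine of eosinophil growth, with 17 with IL-2 and 9 in control. The region after Cpox, an enzyme of haem synthesis, had 11 with IL-2 and 5 in control. A region listed by Gm9975, Mir21, Vmp1 and Tubd1, downstream of each, had 12 with IL-2 and 6 in control. With the libraries scaled to equal medians all 6 were higher in control, with log2 ratios from -1.01 to -0.69, and so were the listed regions after Il24, Zfp36l2 and Ccne1 given below (-0.33 to -0.04).

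Regions after the ends of T cell genes were counted in 11 gene lists, chosen with earlier results of these data known. Of 214 list genes in the table, 52 had a downstream region (24.3%), against 9.14% of all 4934 genes. List genes also had more regions each, with a median of 2 against 1. Counted by region, 71 of the 549 regions nearest to a list gene were downstream (12.9%), against 9.36% of all regions. By list the share was 24.5% for signalling feedback, 24.4% for cytokines and chemokines, 21.4% for cytotoxic effectors and 19% for IL-2 STAT5 targets. It was 13.6% for cytokine and chemokine receptors, 10.1% for T cell transcription factors and 10% each for costimulatory receptors and for survival genes. Genes of T cell receptor signalling had 8.33%, and those of cell cycle and metabolism 3.57%. Over the 52 genes, gene means had a median of 31.98 with IL-2 and 5.23 in control, and 47 had a ratio of 2 or more (83.8% of all genes did). For 45 of them the mean covers several regions, so it does not give the height of the downstream region itself.

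Feedback inhibitors of cytokine signalling were followed by several regions. Of 22 listed genes of signalling feedback, 7 had 12 downstream regions. Cish, which binds activated receptors, had 3, at 1655, 4487 and 6791 bp past the end, among 5 regions with a gene mean of 70.4 with IL-2 and 5 in control. Socs3 had regions at 1834 and 5535 bp and a gene mean of 49.7 with IL-2 and 4.67 in control, over 3 regions. Both regions of Socs1 were downstream, at 416 and 11392 bp. The nearer one had a height of its own, 59 with IL-2 and 6 in control (log2 ratio 2.54), through Tnp2, which also lists it, as do the protamine genes Prm1, Prm2 and Prm3. Over both regions Socs1 had a mean of 107.5 with IL-2 and 6.5 in control. The highest peak of Socs1 was 156, above the height of the nearer region, so it lay at the farther one. Dusp5, a phosphatase of ERK, had a region at 3083 bp (gene mean 47.3 with IL-2 and 5.25 in control). Nfkbia, Rgs1 and Zfp36l2 were lower, with gene means of 12, 16.3 and 13 with IL-2 and 5, 5.67 and 4 in control.

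Among 28 IL-2 STAT5 targets in the table, 9 had 16 downstream regions. Besides Cish, Socs1, Socs3 and Dusp5 these were Pim1, Prdm1, Mcl1, Id2 and Il24. Pim1, a kinase of cell growth and survival, had 3 regions, at 1591, 4407 and 7703 bp, and a gene mean of 32.3 with IL-2 and 6.17 in control over 6 regions. Prdm1, which encodes the repressor Blimp-1 of terminal effector cells, had regions at 2263 and 7607 bp (gene mean 35.3 with IL-2 and 5.25 in control). Il24 was the target other than Socs1 with a region height of its own, 22 with IL-2 and 7 in control at 1978 bp, at a region inside Fcmr. Mcl1, an inhibitor of apoptosis, had a region at 5893 bp (gene mean 53.8 with IL-2 and 6.75 in control). Id2, a relative of Id3, had one at 1287 bp (gene mean 17 with IL-2 and 4 in control).

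**Figure D5:**
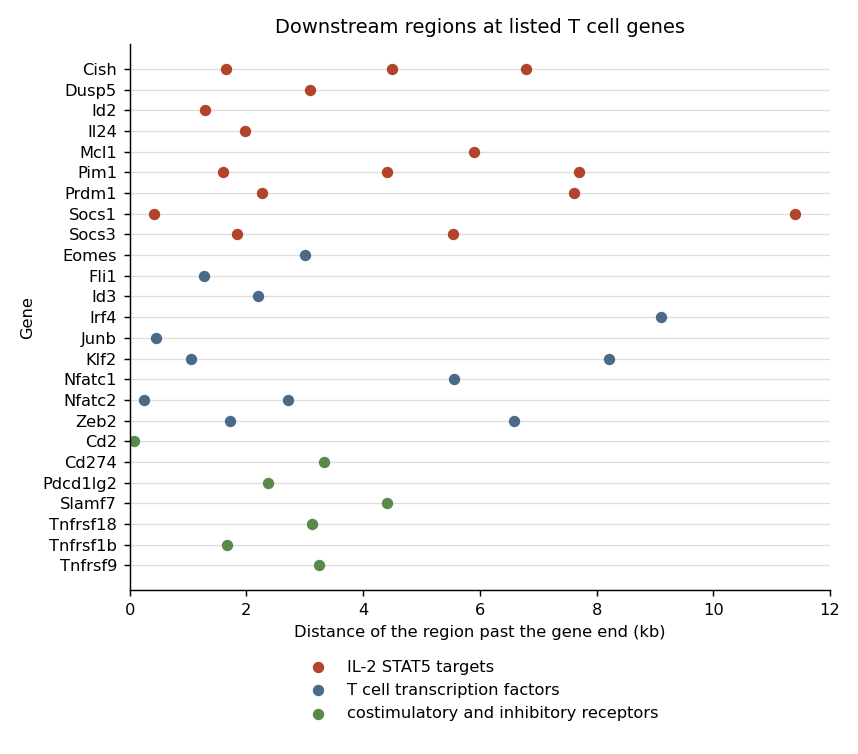
Distance of each downstream region past the end of its gene, in kb, for genes of 3 lists, with genes of more than 1 list shown under IL-2 STAT5 targets. Each point is a region, and Cish and Pim1 have 3 each, while the farthest is that of Socs1 at 11392 bp.

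Of 47 listed T cell transcription factors, 11 had 15 downstream regions (10.1% of the regions nearest to these genes, against 9.36% of all regions). Junb, a subunit of AP-1, had a region at 445 bp and a gene mean of 69 with IL-2 and 5 in control over 3 regions. Irf4, a factor of effector expansion, had one at 9105 bp (gene mean 45.7 with IL-2 and 4 in control). Zeb2, a repressor expressed in terminal effector cells, and Nfatc2 had 2 each, at 1714 and 6578 bp and at 250 and 2714 bp. Eomes, the T-box factor of memory cells, was low, with a gene mean of 16 with IL-2 and 4.67 in control. Klf2, a factor of homing and quiescence, had 2 regions and a gene mean of 20.7 with IL-2 and 8.33 in control. Fli1 and Nfatc1 had 1 each.

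Receptors, ligands and effector genes had downstream regions too. Of 23 listed costimulatory and inhibitory receptors and ligands 7 had 1 region each. Cd274, the ligand PD-L1 of the inhibitory receptor PD-1, had its single region 3329 bp past the end, with 42 with IL-2 and 4 in control (log2 ratio 2.38). Its neighbour Pdcd1lg2, the other PD-1 ligand, had one at 2369 bp (gene mean 35 with IL-2 and 5 in control). Tnfrsf9, which encodes CD137, had one at 3242 bp (gene mean 42.5 with IL-2 and 5.17 in control over 6 regions). Tnfrsf18 had one at 3125 bp (gene mean 75.7 with IL-2 and 6.33 in control), within 1 kb of the start of Gm16008. The others were Slamf7, Tnfrsf1b and Cd2.

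Cytokine and chemokine receptors with a downstream region numbered 7 of 29. Il4ra, a receptor chain for IL-4 and IL-13, had regions at 2062 and 9358 bp (gene mean 61.8 with IL-2 and 7 in control). Next to it, Il21r had one at 2046 bp with a height of 19 with IL-2 and 4 in control, taken from Gtf3c1. Il10ra had one at 1679 bp (gene mean 77 with IL-2 and 5.5 in control over 2 regions). The chemokine receptors Ccr2, Ccr4, Cx3cr1 and Cxcr6 had lower gene means, from 20.5 to 25 with IL-2 and from 4.6 to 5.5 in control.

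Ligands and cytotoxic genes varied as widely. Fasl, the death ligand of cytotoxic cells, had regions at 1395 and 5843 bp and a gene mean of 89.7 with IL-2 and 7 in control. Gzmk, a granule protease, had 2 (gene mean 44.3 with IL-2 and 3.5 in control), while Gzma and Klrk1 had gene means of 13.7 and 14.3 with IL-2 and 4 and 4.25 in control. Il17a had a single region, 6208 bp past the end, with 18 with IL-2 and 3 in control (log2 ratio 1.52). Il10, Tnfsf14 and Ccl3 completed the cytokine list with Il5, Il24 and Fasl, and 7 of 23 of its genes had a downstream region.

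The remaining lists held fewer. Among survival and apoptosis genes, Traf1, a signalling adaptor of TNF receptors, had a downstream region (gene mean 64 with IL-2 and 6 in control), as did Mcl1, given above. Genes of T cell receptor signalling were 4 of 22: Malt1 with 3 regions, Vav1, Cd8a and Cd8b1. Of 14 genes of cell cycle and metabolism only the cyclin gene Ccne1 had one, with 16 with IL-2 and 4 in control. None of the 4 listed genes of other cell types did. Only 2 regions of any position were nearest to a gene of that list, too few to read a share.

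Most genes had a single downstream region. Of the 451 genes, 377 had 1 such region, 65 had 2 and 9 had 3. Neighbouring regions of a gene lay a median of 2944 bp apart (752 to 10976 bp, 83 gaps). Besides Cish and Pim1, genes with 3 included A630001O12Rik, D130062J21Rik, whose regions lie inside Bach2, and Fam78a. Genes with a downstream region and more than 1 region in all had a median gene mean of 29.3 with IL-2 and 5 in control (263 genes), against 21 with IL-2 and 4 in control for those with a single region (188 genes).

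Signal was also called in the control library near a few of these regions. The table marks 12 genes as having an interval in the control library, and 3 of them had downstream regions, 2 each. Mir101c, a microRNA gene near the start of chromosome 9, had a gene mean of 129.5 with IL-2 and 92.5 in control, the highest control value in the table, and regions at 2861 and 8493 bp. At 2310001H17Rik the gene mean was 60.7 with IL-2 and 6.17 in control, over 6 regions. Klf2, given above, was the third.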

How the data were processed

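The authors deposited a table of 4934 genes with the regions (intervals) called near them. Its heights are a signal, never negative, given by the authors as the mean over a gene's regions. Other deposited columns mark whether a library has an interval at the gene, count the regions per gene, and give the gene's highest peak over both libraries. Per the submitters' processing notes, BWA and mm10 were used. Peak caller, depth and scaling between libraries were not given in the sources used here. Depth is therefore unknown, and intervals cover counting only. No column of other samples was present (0 columns).

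Distances and positions were split per interval with Python 3.11.15 and pandas 2.3.3. Positions were computed from gene start or end, strand and distance, and 95.5% of all regions fell on multiples of 16 bp. Of 5 regions with 2 equally near genes, 1 (Igk and a V segment of that locus) was given to Igk itself by alphabetical order and is not counted as downstream. Ratios were computed on a log2 scale after adding a pseudocount of 5 to each height. The pseudocount understates the fold of low heights. Motifs were searched in RefSeq promoter windows in place of the planned window around each region, since no genome was used here. Genes were matched to RefSeq by identifier (4799 of 4934). The assignment was tested on simulated data. Members and lists were chosen with earlier results of these data known. Named regions were, among those with a height, the 12 highest, the 10 with the largest ratio and 6 with the lowest. Also named were the 4 nearest and 4 farthest from the gene end, those of list genes and those with a control interval. So were those of 5 genes with most, the first by alphabetical order of 9 tied at 3 regions. Some of these are counted without their values. Other named genes were chosen after their values were seen. Some listed genes are not reported here. No comparison had a test.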

Additional observations from a re-analysis of the deposited data

How the results depend on the processing

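No paired analysis was possible because neither group had a second library. The number of downstream regions, 534, was 461 above 5000 bp, 554 with no minimum, 510 when the nearest gene body decided and 415 when every listing gene had to agree. Regions listed by several genes numbered 63 in that last setting, against 182, and fewer remain there by construction. The median distance past the end, 4384 bp, became 5085 bp above 5000 bp and 3592 bp with the nearest gene body. The median log2 ratio, 1.56, was 2.21 with a pseudocount of 1, 1.16 with 10, 0.35 with the libraries scaled to equal medians, 1.95 for regions with an IL-2 height at or above the median, a filter on the numerator that raises the ratio by construction, and 1.72 with gene means of all 534. The 170 regions with a ratio of at least 2 became 38 of 198 with scaling (19.2%, against 14.2% of all regions with a height), 486 of 534 with gene means, where more regions enter (83.8% of all genes pass), and 60 with a fold of 4. For pseudocounts and scaling the change follows from the formula. The motif was within 50 bp of the position in 1 of 4 windows, against 2 in 300 bp. Scaling turned 9 of 29 named ratios below 0: Hspe1 (-1.01), Sit1 (-1.01), Il5 (-0.94), Tcrg-C2 (-0.90), Gm9975 (-0.81), Cpox (-0.69), Il24 (-0.33), Zfp36l2 (-0.26) and Ccne1 (-0.04). The pseudocounts reversed none of the 29. Unknown depth limits all heights.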

Other observations

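The share of regions that were downstream differed between chromosomes, as counts without a test. It was 13.3% on chromosome 16 (28 of 211 regions), 12.5% on chromosome 6 (48 of 383) and 6.42% on chromosome 3 (21 of 327), against 9.36% over all chromosomes. More regions were downstream of some gene than the rule takes. In all, 1325 of the 5703 regions lay downstream of at least 1 listed gene, of which the rule took 534; for the others the start of a gene that they did not follow was nearer, or the start was within 1000 bp.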
